A study of Mus musculus with 3 samples.

Results

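Genes for translation initiation factors, the proteins that bring a ribosome to the start codon of an mRNA, were described in macrophages that met Lipid A for a second time. The members were the gene rows whose symbol begins with Eif1 to Eif6. Rows of the Eif2ak kinases, rows of Eif2s3 and pseudogene rows were left out, and a protein-coding transcript was required. This gave 49 genes of 55536, of which 22028 were protein-coding. The rule used symbols and transcript types and no measured value, though it was set with earlier results of these data known.

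The cells were bone-marrow-derived macrophages of C57BL/6J mice, as primary cells. All received Lipid A, the membrane anchor of bacterial lipopolysaccharide, at 100 ng/ml during 12 h, were washed out during 12 h and were then stimulated once more with Lipid A at 100 ng/ml, for 120 min. RNA of the cytosolic fraction (1 µg, ribosomal RNA depleted) was sequenced in 3 libraries labelled as biological replicates. Age and sex were not collected, and all libraries share the strain's 1 donor entry, so nothing in the labels shows separate animals and the spread may be technical. There was 1 group and no untreated or singly treated group, so levels are described and no effect of Lipid A can be read from them.

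Initiation begins when eIF2, loaded with GTP and the initiator tRNA, joins the small ribosomal subunit together with eIF1, eIF1A, eIF3 and eIF5. The cap-binding complex eIF4F, made of the cap binder eIF4E, the scaffold eIF4G and the RNA helicase eIF4A, attaches that subunit to the mRNA, which is then scanned for a start codon. In macrophages exposed to bacterial products the pathway is known to be controlled at eIF2, through its kinases, and at eIF4E, through its inhibitory binding proteins. These steps act largely on proteins, and the values here are RNA levels.

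Replicate 2 was the deepest library with 64822118 expected counts, against 29376859 in replicate 1 and 37665844 in replicate 3. Values are TPM, a level per transcript length, as mean ± SD of the 3 libraries unless a replicate is named. Protein-coding genes held only 26.5% to 32.5% of the TPM of a library, so that TPM of the members are low on this scale. The cells carried their labelled identity: 10 of 10 macrophage markers reached 1 TPM in every library, with a summed level of 5947 to 6554 TPM. Neutrophil markers reached 1 TPM for 2 of 8 (summed 3.63 to 7.66 TPM) and endothelial markers for 2 of 4 (summed 4.66 to 11.0 TPM). No marker of dendritic cells, T and NK cells, B cells, mast cells, fibroblasts or erythroid cells reached 1 TPM in all libraries. In such bulk samples, fewer cells that express a gene and less RNA per cell cannot be told apart.

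Nearly all of the initiation factor genes chosen were detected, and the rows left out by the rule, such as Eif2s3, are not covered. Of the 49 genes, 47 reached 1 TPM in all libraries, where 39.1% of protein-coding genes did. At 5 TPM the counts were 41 members and 23.7% of protein-coding genes. At 10 TPM the counts were 33 members and 15.3% of protein-coding genes, and at 100 TPM 4 members and 1.68%. The exceptions at 1 TPM were Eif5a2, with 1.07, 0.79 and 1.04 TPM in replicates 1, 2 and 3, and Eif4e1b, a germ-cell relative of the cap binder, which was listed at 0 in every library of the gene table and at 0.10, 0.044 and 0.39 TPM in the second deposited quantification. The median member stood at 19.1 ± 1.05 TPM, against 8.03 ± 0.594 TPM for protein-coding genes that reached 1 TPM. Together the members held 0.581% ± 0.0341 of the protein-coding TPM, and the 5 highest of them held 48.2% of the members' sum.

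**Figure D1:**
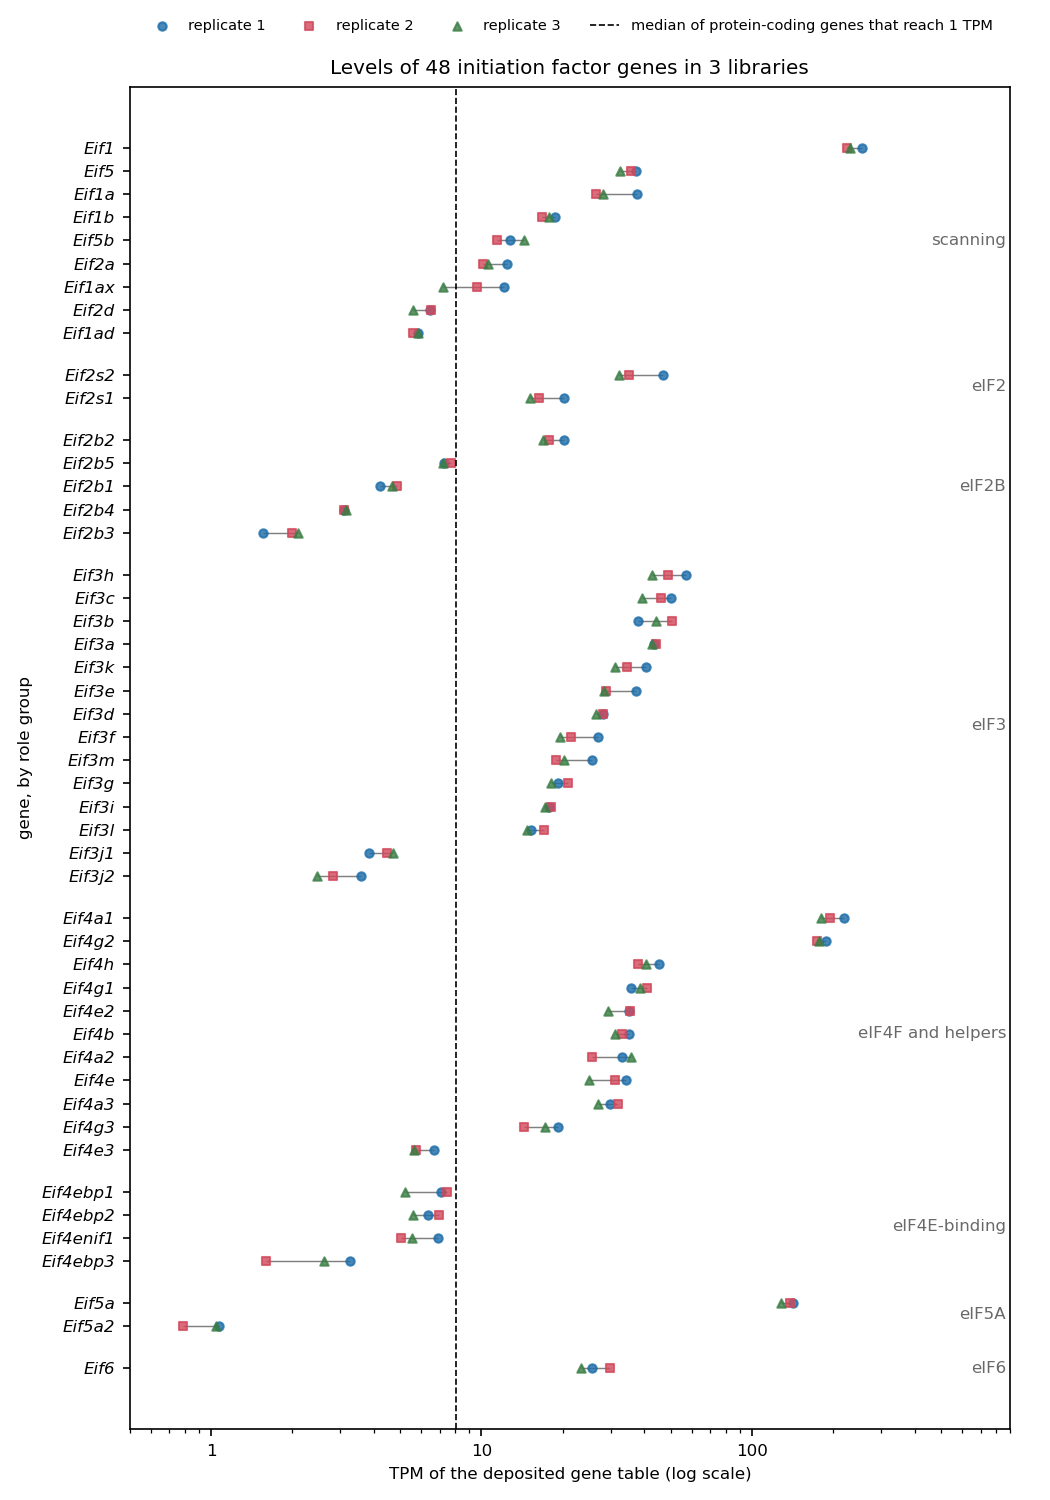
TPM of 48 initiation factor genes (vertical axis, by role group) in each of the 3 libraries on a logarithmic horizontal axis; symbols are libraries, grey lines span them, and the dashed line is the median of protein-coding genes that reach 1 TPM (8.03). Eif1, Eif4a1, Eif4g2 and Eif5a lie above 100 TPM in every library, eIF3 genes other than Eif3j1 and Eif3j2 lie between 14.7 and 57.1 TPM, and Eif4e1b, at 0, is not drawn.

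Among the factors that bind the small subunit and choose the start codon, Eif1 was far above the rest. Eif1 encodes the small protein that keeps the scanning ribosome open and rejects poor start sites (mm10, ENSMUSG00000035530.13, chromosome 11, 100319885 to 100322096). Its TPM were 255 in replicate 1, 224 in replicate 2 and 230.1 in replicate 3. In the gene table every library of Eif1 was above every library of any other member. In the second quantification Eif1 had 124, 135 and 111 TPM and Eif4g2 82.6, 115 and 107 TPM, so their ranges overlapped. Over protein-coding transcripts alone Eif1, at 147 ± 16.7 TPM, lay below Eif4a1 and Eif4g2. The Eif1 paralog Eif1b had 18.7, 16.7 and 17.7 TPM in the gene table, so that Eif1 was 13.4 ± 0.339 times higher. The log2 ratio of Eif1 over Eif1b was 3.67 ± 0.04, and 2.98 over protein-coding transcripts alone. The chi-square test, which asks whether libraries differ by more than counting error, did not separate the libraries of Eif1b (adjusted p = 0.432 over all genes tested).

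eIF1A, the partner of eIF1 in scanning, is encoded by a pair of genes whose coding sequences were identical at 372 of 434 aligned bases. The X-linked Eif1ax had 12.1, 9.62 and 7.21 TPM and the autosomal Eif1a 37.6, 26.5 and 28.0 TPM in replicates 1, 2 and 3. Eif1a was higher in each library, with a log2 ratio of Eif1ax over Eif1a of -1.58 ± 0.23, each TPM raised by 1. Over protein-coding transcripts alone the log2 ratio was -2.50. Eif5, which makes eIF2 hydrolyse its GTP at the start codon, had 37.2, 35.8 and 32.4 TPM. Eif5b, the GTPase that joins the large subunit, stood at 12.8 ± 1.47 TPM. The lowest genes of the group were Eif2d, a factor that can deliver tRNA without GTP, at 6.16 ± 0.520 TPM, and Eif1ad, an eIF1A-domain protein, at 5.84, 5.57 and 5.80 TPM. The libraries of Eif1ad lay close together, and the test did not separate them (adjusted p = 0.157). Eif2a, an alternative tRNA carrier, stood at 11.0 ± 1.23 TPM.

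The start sites of these genes are shown because eIF1 and eIF5 act on the bases around the start codon. Capitals mark the base 3 before the start codon, the start codon and the base after it, in the highest protein-coding transcript of each gene in GENCODE M21. A purine at the first of these positions and a G at the last are the favoured context in mammals.
Eif1 (chromosome 11): tcgtatCgtATGTccgct
Eif1b (chromosome 9): tagtgtCgcATGTccact
Eif3b (chromosome 5): cgcgggCccATGCaggac
Eif5 (chromosome 12): taagccAaaATGTctgtc
Eif3e (chromosome 15): cccggcAagATGGcggag
Eif3h (chromosome 15): gctggaAacATGGcgtcg
Eif1, Eif1b and Eif3b were the 3 members at 1 TPM with neither favoured base, of 44 with an annotated ATG and at least 9 bases before it (6.82%, against 6.25% of 8331 protein-coding genes). A purine stood at the earlier position in 88.6% of members and 86.8% of those genes, and both favoured bases in 38.6% and 47.5%. An ATG upstream of the start occurred in 9 members (20.5%), where 3997 of the 8331 genes had one. The median length before the start codon was 122 bases in members and 155 bases in all genes. Eif5 had 5 upstream ATGs within 626 bases. These are features of the annotated transcripts, not of translation in these cells.

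eIF2 carries the initiator tRNA. Its alpha subunit, the site that stress kinases phosphorylate, is encoded by Eif2s1, which had 20.2, 16.3 and 15.1 TPM in replicates 1, 2 and 3. The beta subunit gene Eif2s2 had 46.9, 35.1 and 32.3 TPM. Eif2s2 was higher than Eif2s1 in each library. Replicate 1 was highest for both genes on TPM, as it was for 63.2% of protein-coding genes that reached 1 TPM. On TMM-scaled CPM, which are counts scaled to a common library size, Eif2s1 was highest in replicate 2 and Eif2s2 in replicate 1.

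eIF2B, the exchange factor that recharges eIF2 with GTP and is blocked by phosphorylated eIF2, consists of 5 subunits and was low as a group, with a sum of 35.3 ± 1.17 TPM. Eif2b2 (beta) had 20.2, 17.8 and 16.9 TPM in replicates 1, 2 and 3. Eif2b5, the catalytic epsilon subunit, had 7.24, 7.73 and 7.21 TPM. Eif2b1 (alpha) had 4.20, 4.89 and 4.67 TPM. Those 3 genes did not overlap in any library. Eif2b4 (delta) had 3.10, 3.09 and 3.16 TPM, and its libraries were not separated by the test (adjusted p = 0.291). The intervals that the authors gave for these TPM were 3.43 to 6.98, 3.15 to 4.68 and 3.29 to 6.07 in replicates 1, 2 and 3. They lie above the listed values, so the level of Eif2b4 is uncertain. Eif2b3 (gamma) had 1.55, 2.00 and 2.09 TPM. The protein subunits occur in equal numbers in the assembled complex. On gene-level TPM of RNA the highest gene lay 13.0, 8.88 and 8.07 times above the lowest in replicates 1, 2 and 3. Much of the lead of Eif2b2 came from 1 short transcript model. Over protein-coding transcripts alone Eif2b2 stood at 8.74 ± 1.43 TPM, and its range overlapped that of Eif2b5 (7.39 ± 0.292 TPM). Eif2b3 stood at 1.80 ± 0.218 TPM on that measure, so the gap between the highest and the lowest gene was smaller in each library.

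eIF3, the large complex that holds the small subunit and the mRNA together, was represented by 14 genes, all at 1 TPM or more, with a sum of 381 ± 28.0 TPM. The highest on average was Eif3h, with 57.1, 49.1 and 42.7 TPM in replicates 1, 2 and 3. Eif3c had 50.4, 46.1 and 39.1 TPM. Eif3b had 37.9, 50.7 and 44.1 TPM. These 3 and Eif3a (43.4 ± 0.790 TPM) overlapped in their libraries, so their order is not resolved. Eif3k, Eif3e, Eif3d, Eif3f, Eif3m, Eif3g, Eif3i and Eif3l followed with means between 15.7 and 35.4 TPM. Eif3d encodes a subunit known to bind the cap of certain mRNAs itself. The highest gene lay 17.3 ± 1.18 times above the lowest, but 3.24 ± 0.439 times once Eif3j1 and Eif3j2 were left out, a choice made after these values were seen.

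Eif3j1 and Eif3j2 encode the loosely attached j subunit, which sits near the decoding site, and stood apart from the other subunits. Eif3j1 had 3.85, 4.49 and 4.69 TPM and Eif3j2 3.59, 2.82 and 2.46 TPM in replicates 1, 2 and 3. The genes share 784 of 784 aligned coding bases, and 91.8% of the 50-base words of the Eif3j2 transcript occur in other genes, nearly all in Eif3j1. In the second deposited quantification the order turned round, with a log2 ratio of Eif3j1 over Eif3j2 of -0.74 against 0.44 ± 0.33 in the gene table. The split between them is uncertain for this reason. Their sum was 7.44, 7.31 and 7.15 TPM in the gene table, where the libraries lay close together on this scale. On TMM-scaled CPM Eif3j1 had 31.8, 44.4 and 42.6 in replicates 1, 2 and 3, lowest in replicate 1. Eif3j2 had 12.5, 11.6 and 9.37 on that scale, highest in replicate 1. In the second quantification the summed TPM of both genes were 3.61, 5.20 and 4.36, lowest in replicate 1. Even summed, the j subunit genes lay below every other eIF3 gene in each library of the gene table.

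The cap-binding complex and its helpers formed the highest role group, with a sum of 637 ± 38.6 TPM over 12 genes, most of it from Eif4a1 and Eif4g2. Eif4a1, the main RNA helicase of the complex, had 219, 195 and 180.1 TPM in replicates 1, 2 and 3 (chromosome 11, 69666936 to 69672423). Eif4g2, a scaffold relative that lacks the eIF4E-binding region and serves cap-independent initiation, had 187, 174 and 176 TPM (chromosome 7, 111067750 to 111083030). Eif4a1 was higher in each library of the gene table, though their ranges overlapped. In the second quantification Eif4g2 was higher in replicates 2 and 3, with 115 and 107 TPM against 104 and 92.6 TPM. The order of Eif4a1 and Eif4g2 is therefore not resolved. Over protein-coding transcripts alone these genes led the family, at 193 ± 22.3 and 174 ± 8.45 TPM, followed by Eif1 at 147 ± 16.7 TPM.

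Eif4g2 exceeded the classical scaffold gene Eif4g1 in each library, with 187, 174 and 176 TPM against 35.6, 40.8 and 38.7 TPM, a ratio of 4.69 ± 0.509. Eif4g3, another scaffold gene, had 19.1, 14.3 and 17.2 TPM. Eif4g2 is known to start translation at a GTG in place of an ATG, and its leading transcript is annotated so. The annotated start is printed with the GTG in capitals, from GENCODE M21.
Eif4g2 (chromosome 7): gccgccaaaGTGgagagt

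The helicase paralogs of Eif4a1 were lower. Eif4a2 had 33.2, 25.7 and 35.6 TPM and Eif4a3, the helicase of the exon junction complex, 29.7, 32.0 and 27.1 TPM in replicates 1, 2 and 3. The log2 ratio of Eif4a1 over Eif4a2 was 2.62 ± 0.29, or 6.42 ± 1.28 on the TPM themselves. Over protein-coding transcripts alone the log2 ratio was 4.50, because most Eif4a2 TPM lay in other transcripts, described further on. That of Eif4a1 over Eif4a3 was 2.70 ± 0.14, and 3.50 over protein-coding transcripts alone. Eif4a1 also shares sequence with a processed pseudogene, Eif4a-ps4 on chromosome 1, which is not a member. The pseudogene equals the Eif4a1 coding sequence at 1217 of 1218 bases. A stretch of 60 coding bases that covers the differing base is printed in GENCODE M21 transcripts, with capitals for bases that differ from Eif4a1.
Eif4a1 (bases 475 to 534): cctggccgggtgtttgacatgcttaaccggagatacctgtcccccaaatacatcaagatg
Eif4a-ps4 (bases 475 to 534): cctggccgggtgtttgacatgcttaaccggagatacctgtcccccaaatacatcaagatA
Eif4a2 (bases 481 to 540): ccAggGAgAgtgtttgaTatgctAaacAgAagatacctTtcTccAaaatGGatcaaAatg
Eif4a2 differed at 14 of these positions and the pseudogene at 1. Eif4a-ps4 was listed at 3.25, 9.93 and 9.98 TPM in replicates 1, 2 and 3, and at 0.89, 16.4 and 3.02 TPM in the second quantification. Its level thus moved between libraries and between quantifications, and reads of Eif4a1 assigned to it cannot be told apart from its own. Assigning all of it to Eif4a1 would add 4.04% ± 2.23 to that gene.

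Of the cap binders, Eif4e had 34.3, 31.2 and 24.9 TPM in replicates 1, 2 and 3. Eif4e2, which encodes a cap binder that represses translation, had 35.0, 35.4 and 29.4 TPM. Their ranges overlapped. The log2 ratio of Eif4e over Eif4e2 was -0.14 ± 0.10, below 0 in each library, and 0.062 in the second quantification, so their order is not resolved. Eif4e3 had 6.68, 5.71 and 5.65 TPM and was lower than Eif4e in each library, with a log2 ratio of Eif4e over Eif4e3 of 2.14 ± 0.16, and its libraries were not separated by the chi-square test (adjusted p = 0.109). The helicase cofactor gene Eif4h had 45.4, 38.03 and 40.5 TPM in replicates 1, 2 and 3, the highest mean of the group after Eif4a1 and Eif4g2, though Eif4g1 was above it in replicate 2. Eif4b, another cofactor, stood at 33.1 ± 2.03 TPM.

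The binding proteins that hold eIF4E away from eIF4G were low at the RNA level, with a sum of 21.2 ± 2.31 TPM over 4 genes. Eif4ebp1 had 7.08, 7.48 and 5.22 TPM, and Eif4ebp2 6.34, 6.95 and 5.60 TPM in replicates 1, 2 and 3. Eif4ebp1 was the higher of the pair in 2 of 3 libraries, and the log2 ratio of Eif4ebp1 over Eif4ebp2 was 0.05 ± 0.12. Over protein-coding transcripts alone the ratio turned to -0.12, with 6.05, 6.05 and 5.07 TPM for Eif4ebp1, so their order is not resolved. Eif4ebp3 had 3.26, 1.60 and 2.62 TPM, but 65.5% of the 50-base words of its transcript also occur in AC115631.1, a gene model that spans it on the same strand, so its own level is uncertain. Eif4enif1, which encodes the shuttling protein 4E-T that carries eIF4E into the nucleus, had 6.92, 5.04 and 5.55 TPM. Eif4e alone lay above the sum of its binding proteins in each library on gene-level TPM. However, its leading transcript Eif4e-205, a model of 729 bases, held 37.9%, 35.9% and 40.4% of its TPM in replicates 1, 2 and 3. That model held 12.9% ± 0.524 of its counts. The order of Eif4e and the sum rests on this short model and is not firm.

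eIF5A, which helps the ribosome through stretches that form peptide bonds slowly and carries the modified residue hypusine, came almost wholly from Eif5a, with 142, 138 and 129 TPM (chromosome 11, 69916714 to 69921958). Its paralog Eif5a2 stood lower, with Eif5a 144 ± 27.4 times above it. Eif5a lies 244290 bases from Eif4a1 on chromosome 11, and Eif1 lies on the same chromosome. Eif6, which keeps large and small ribosomal subunits apart, had 25.6, 29.9 and 23.3 TPM.

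Lines of C and T at the transcription start mark many mRNAs of the translation apparatus whose use depends on mTOR. A run was counted where a C within 10 bases of the RefSeq start was followed by C or T to a length of at least 6 bases. It was present in 8 of 37 members with an entry (21.6%), in 23.8% of 6905 protein-coding genes at 1 TPM, and in 56.1% of 57 genes of cytosolic ribosomal proteins. The member with the longest run was Eif3f, printed from RefSeq GRCm38.p6, plus strand, with the run in capitals.
Eif3f (chr7:108934403-108934432): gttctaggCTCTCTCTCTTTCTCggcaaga
A run is a match of letters at an annotated start and says nothing of the start used in these cells.

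Between libraries most members differed by more than counting error, though by small folds. The chi-square test, on counts with TMM scaling and Benjamini-Hochberg adjustment over all genes, called 44 of 48 members tested, where it called 71.6% of all genes and 71.9% of protein-coding genes tested. Deep genes are called more readily: at 5 TPM or more it called 38 of 41 members and 87.8% of protein-coding genes, so the members' share is near that of genes of like level. Without replicate 2, the deepest library, 27 members were called, and 52.5% of all genes. Without replicate 1 the test called 38 members and 56.6% of all genes, and without replicate 3 it called 35 members and 53.4%. The highest library exceeded the lowest by more than 1.5-fold in 2 members, Eif4ebp3 (1.71-fold) and Eif2b3 (1.54-fold), where 39.3% of all genes and 28.6% of protein-coding genes tested did. The median of that ratio was 1.20 over members and 1.29 over protein-coding genes tested. These fold figures were taken over genes of any level tested, so they do not compare the members with genes of like level. The tagwise biological coefficient of variation of edgeR had a median of 0.142 over members of at least 5 TPM and 0.145 over protein-coding genes of that level.

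Replicate 2 was the highest library for 33 of the 48 members on TMM-scaled CPM (counts scaled to a common library size), where it was highest for 41.2% of protein-coding genes tested. Replicate 1 was highest for 12 members (34.8% of those genes) and replicate 3 for 3 (23.9%). Among members of at least 5 TPM, the median log2 difference of replicate 2 from the other libraries was 0.17, against 0.05 over protein-coding genes of that level. In replicate 3 the median was -0.13 for members and -0.09 for those genes. The library order depended on the scale. On TPM as deposited, replicate 1 was highest for 28 members and for 63.2% of protein-coding genes that reached 1 TPM, and replicate 2 for 15 members and 17.7% of those genes. After TPM were rescaled to the sum of protein-coding and long noncoding genes, replicate 2 was highest for 27 members and 38.9% of those genes. In the second quantification it was highest for 39 members and 61.0% of those genes. Depth moved with this pattern, as replicate 2 had the most counts, and its part in the result was not tested.

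**Figure D2:**
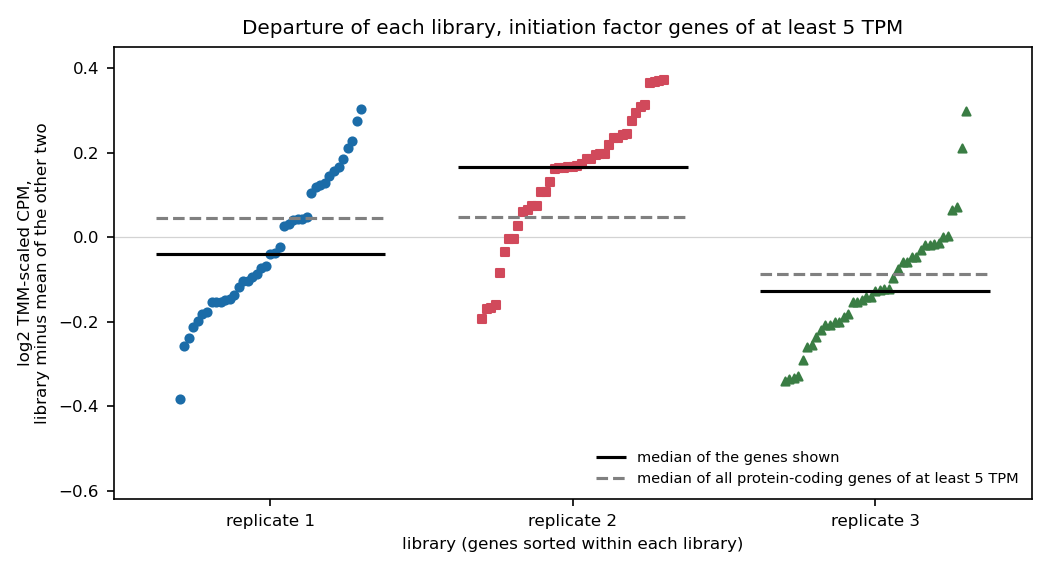
Log2 TMM-scaled CPM of each library minus the mean of the other libraries (vertical axis) for 41 initiation factor genes of at least 5 TPM, sorted within each library (horizontal axis); solid lines are their medians and dashed lines the medians of all protein-coding genes of at least 5 TPM. The members' median lies at 0.17 in replicate 2, above the 0.05 of all genes, and at -0.13 in replicate 3.

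The members with the largest coefficient of variation at 5 TPM or more were Eif4ebp1, Eif3b, Eif4g2, Eif2s2 and Eif4g1, between 0.156 and 0.169. The tagwise coefficient leans on a fitted trend with level, which stood at 0.190 for Eif4g2. On TMM-scaled CPM the highest library of Eif4g2 lay only 1.16-fold above its lowest, below the members' median of 1.20. Its place in this list is therefore not a large spread between libraries. Eif3b had 139, 192 and 172 TMM-scaled CPM in replicates 1, 2 and 3, lowest in replicate 1 (adjusted p = 1.5e-68). Eif2s2 had 172, 155 and 129.5, highest in replicate 1 (adjusted p = 1.3e-44). The eIF3 and eIF2 genes thus did not all follow 1 library order. These p-values weigh counting error only.

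Transcript tables showed that the level of a gene and the level of its protein-coding mRNA were not the same for several members. Over the 41 members of at least 5 TPM, the median share of TPM in transcripts not classed as protein-coding was 1.98% in the first quantification and 3.16% in the second. The medians over 5210 protein-coding genes of that level were 2.43% and 4.59%. The share exceeded 10% in 10 members (24.4%) and in 27.2% of those genes, a share near that background. The leading transcript was the same in both quantifications for 38 members.

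Eif4a2 had the largest share in the first quantification, 69.3%, 75.3% and 81.6% of its TPM in replicates 1, 2 and 3, and 60.1% ± 7.66 in the second, where Eif1ax stood higher at 64.5% ± 8.27. Its leading transcript, Eif4a2-210, is classed as a target of nonsense-mediated decay, the pathway that removes mRNAs with a premature stop. That transcript held 45.6% ± 5.84 of the gene's TPM and 35.2% ± 2.59 in the second quantification. All such decay targets of Eif4a2 held 66.8%, and the share of the gene's expected counts outside protein-coding transcripts was 78.5% ± 2.94. Eif4a2 was thus high on this measure in every library, in both quantifications and on both scales.

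In the next 4 genes the share depended on the scale. Eif2b2 held 49.7%, 50.7% and 56.6% of its TPM in retained-intron transcripts in replicates 1, 2 and 3, but 11.0% ± 0.602 of its expected counts. For Eif1ax, retained-intron TPM were 62.7%, 52.5% and 36.6% in replicates 1, 2 and 3, but 4.28% ± 2.01 of the counts. Eif4a3 held 44.6%, 51.5% and 40.1% of its TPM in processed transcripts, which lack an annotated open reading frame, and 14.02% ± 3.01 of its counts. Eif1 held 35.7%, 34.8% and 43.2% of its TPM in such transcripts and 8.55% ± 1.45 of its counts. The transcripts concerned are short: Eif2b2-206 has 338 bases and Eif1ax-202 has 416. A few counts on a short model give many TPM, and the gene-level TPM of these 4 genes include them.

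**Figure D3:**
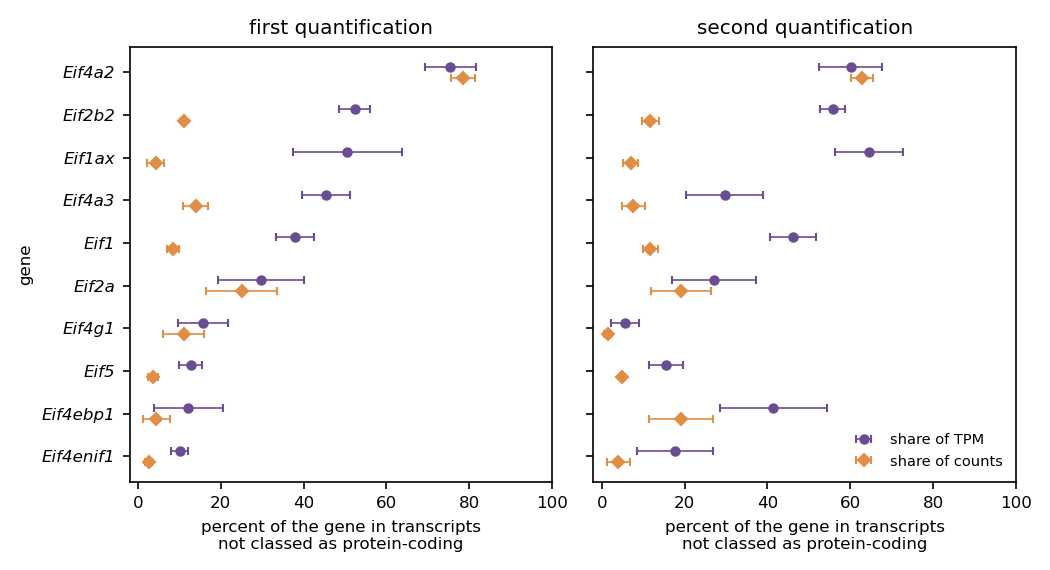
Percent of a gene in transcripts not classed as protein-coding (horizontal axis) for the 10 members with the largest share of TPM (vertical axis), as mean and SD over 3 libraries, in the first (left) and second (right) quantification; circles are shares of TPM and diamonds shares of counts. Eif4a2 is high on both scales (75.4% of TPM and 78.5% of counts in the first quantification), while Eif2b2, Eif1ax, Eif4a3 and Eif1 are high on TPM and at 14.02% of counts or below.

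The quantifications differed outright for Eif5b. Its protein-coding transcript Eif5b-201 held 95.5% ± 5.44 of the TPM in the first quantification, whereas the retained-intron transcript Eif5b-202 led in the second with 53.5% ± 4.48. These transcripts have 7797 and 5788 bases, and their shares of the counts were close to those of the TPM, at 97.1% ± 3.68 and 47.1% ± 3.99. For gene totals the quantifications lay closer: after rescaling both, 46 of 48 members were within 1.5-fold, and the exceptions were Eif3j2 (2.04-fold) and Eif3j1 (0.638-fold).

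**Figure D4:**
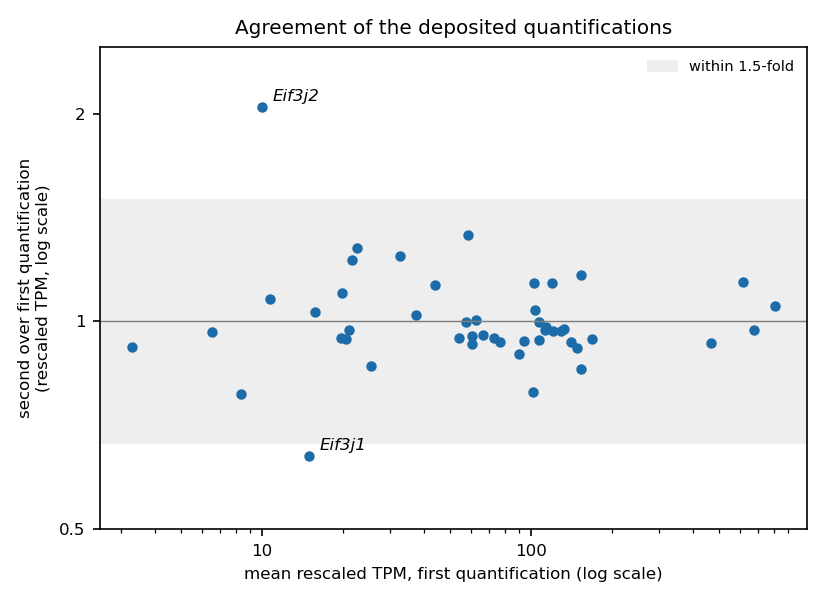
Ratio of the second to the first deposited quantification (vertical axis, log scale, TPM rescaled to the sum of protein-coding and long noncoding genes) against the mean rescaled TPM of the first (horizontal axis, log scale) for 48 initiation factor genes; the grey band is within 1.5-fold. Eif3j2 (2.04) and Eif3j1 (0.638), which share their coding sequence, lie outside the band.

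Other genes of the pathway were described from a list of 30 regulators and partners, of which 28 reached 1 TPM in all libraries, where 39.1% of protein-coding genes did. The chi-square test called 25 of the 30, where it called 71.9% of protein-coding genes tested and 87.8% of those of at least 5 TPM. The median of the 30 genes was 10.3 ± 0.753 TPM. Pabpc1, the poly(A)-binding protein that contacts eIF4G, had 241, 281 and 224 TPM in replicates 1, 2 and 3, a level like that of Eif1. Of the kinases that phosphorylate eIF2 alpha, Eif2ak2, the RNA sensor PKR, was the highest with 36.7, 28.2 and 32.0 TPM, and Eif2ak3, the sensor of the endoplasmic reticulum, had 0.95, 0.85 and 1.07 TPM. Ppp1r15a, the inducible phosphatase subunit that reverses their action, had 99.0, 49.1 and 28.9 TPM in replicates 1, 2 and 3. Its libraries did not lie close together: on TMM-scaled CPM the highest was 2.60-fold above the lowest, while no initiation factor exceeded 1.71-fold. Eif2s1, the substrate of both, had 1.18-fold on the same measure. Mknk1 and Mknk2, the kinases of eIF4E, stood at 17.1 ± 3.40 and 17.7 ± 3.33 TPM. Pdcd4, an inhibitor of the eIF4A helicase, was among the lowest with 0.99, 1.27 and 1.16 TPM. Dhps and Dohh, the enzymes that make hypusine on eIF5A, stood at 12.4 ± 0.318 and 6.93 ± 0.732 TPM.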

How the data were processed

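3 kinds of deposited table were used per library. Per the file headers, the gene table holds expected counts and TPM, the first transcript table adds a percent share of each transcript in its gene, and the second transcript table holds estimated counts and TPM, summed per gene here. Per the labels the assembly is mm10, and versioned IDs matched GENCODE M21. For the aligner and quantifiers, versions and names were not given in the sources used here. The authors took TPM over all rows, tRNA rows included. Rows naming no gene (0.350%, 0.169% and 0.168% of expected counts in replicates 1, 2 and 3) were left out.

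Expected counts were rounded. TMM scaling and the tagwise coefficient of variation came from edgeR 4.0.16 with an intercept only, in R 4.3.3, and the chi-square test from scipy 1.17.1. A gene entered the test with 10 counts or more in any library, and was called at an adjusted p of 0.05. Both steps were tested on simulated data. Log2 ratios of paralogs used a pseudocount of 1, and 3 libraries cannot give an exact two-sided p below 0.25. Shared words are 50 bases of the highest protein-coding transcript found in transcripts of another gene. Sequences came from GENCODE M21 and RefSeq GRCm38.p6.

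The rule for names took, with values per library, the 3 highest members and the lowest of each role group, groups of 5 or fewer, paralog pairs, the 5 largest coefficients of variation at 5 TPM and the 5 largest transcript shares. Any further gene was named with its values known. The members, lists and tests were chosen with earlier results of these data known. Alternatives were DESeq2 1.42.0 size factors, no count filter, the second quantification, rescaled TPM, a pseudocount of 0.1 and leaving out each library.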

Additional observations from a re-analysis of the deposited data

How the results depend on the processing

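The median TPM of the members was 19.1, and became 10.3 in the second quantification, 65.2 on rescaled TPM, 17.5 over protein-coding transcripts only (an alternative added after seeing the data) and 22.0 over members of at least 1 TPM. The 44 members that differed between libraries became 27 to 38 when a library was left out, lowest without replicate 2. The eIF3 ratio of 17.3 became 19.7 in the second quantification and 3.24 without Eif3j1 and Eif3j2, which was also added later. In the second quantification 4 of the 8 role groups kept their place in the order of summed TPM. There the log2 ratio of Eif3j1 over Eif3j2 reversed to -0.74 and that of Eif4e over Eif4e2 to 0.062. The cause of these shifts was not tested. Of 69 single values, 20 moved beyond 1 SD over protein-coding transcripts only, and 61 in the second quantification, which has another TPM total for these genes. Genes under 10 counts were not tested, and Eif4e1b, at 0 in the gene table, was among them. No paired analysis was possible because the labels give 1 group only.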
